A study of Drosophila melanogaster with 4 samples.

Results

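The interior of chromosome arm 3L is the euchromatic body of the left arm of Drosophila chromosome 3. In 3rd instar larvae this interior carried KDM4A-enriched regions along the arm, with long empty stretches between them. Its regions are the rows typed as significant enrichment on 3L whose midpoint lies, on genome release 5, at least 1 Mb from the telomere-side end of the assembled arm and at most at position 22543557, 2 Mb before its centromere-side end. The stretch from 17.5 to 18.1 Mb was left out. That rule gave 1787 of 11489 regions in the first ChIP replicate (15.6%). It gave 963 of 5780 in the second (16.7%) and 1703 of 11016 in the series' combined list (15.5%). The sequence analysed measured 20.9 Mb.

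All material came from wild-type Oregon-R (Oregon-R-modENCODE) larvae, harvested in bulk, and no sample carried a further allele or treatment. The study consisted of 2 KDM4A ChIP libraries and 2 input libraries. Titles and source names set these groups, although the free description of ChIP replicate 2 speaks of input DNA and that of input replicate 1 of immunoprecipitated DNA. The antibody, Q2541, was raised in rabbit against residues 350 to 449 of JMJD2A/KDM4A. Larvae were taken as a whole, so regions of different tissues cannot be told apart. Regions called in input DNA alone were not analysed here. The labels do not state whether the replicates are separate larval collections, and the differences between them may be technical. With 2 libraries of 1 group no test over samples is possible, and every value below is a description. Intervals are exact Clopper-Pearson 95% intervals and cover counting error only.

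KDM4A belongs to the JmjC family of histone demethylases, iron-dependent enzymes that remove methyl groups from lysines of histone H3. In Drosophila it binds heterochromatin protein HP1a, which is best known from pericentric chromatin, yet HP1a and its partners are also present at many places on the chromosome arms. Larvae at this stage hold many polytene tissues, in which the chromatids of an arm lie in register.

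Regions of replicate 1 took up 4.83 Mb, 23.1% of the 3L interior, and those of replicate 2 took up 2.59 Mb, 12.4%. Their mean was 17.7% ± 7.57 (SD, n = 2). The combined list covered 4.61 Mb, or 22.0%. Per Mb there were 85.3 regions in replicate 1 and 46.0 in replicate 2, and the combined list had 81.3. Median widths of the whole lists were 2197 bp (replicate 1) and 2256 bp (replicate 2), with 2151 bp for combined regions, although at sites matched between the replicates the region of replicate 1 was more often the wider (471 of 700 pairs). Read depth is unknown from these lists, so its part in the number of regions was not tested.

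Most regions were short and close to a neighbour. Widths in replicate 1 ran from 1301 to 15195 bp, with quartiles of 1675 and 3187 bp. In replicate 2 they ran from 1307 to 15306 bp, with quartiles of 1927 and 3008 bp. Regions over 5 kb made up 8.00% of replicate 1 and 7.06% of replicate 2 but held 20.1% and 17.1% of the region bases, and 11 and 5 regions, respectively, exceeded 10 kb. The combined list had 15 of that size. A typical region had its next neighbour at 3091 bp (median, replicate 1), 6335 bp (replicate 2) or 2837 bp (combined). Gaps were uneven, with upper quartiles of 9120 bp in replicate 1 and 20708 bp in replicate 2.

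Each region carries an enrichment score of the authors, whose scale is not named in the files, and it is used here only within a list. Replicate 1 scores had a median of 0.757 (range 0.0530 to 3.73). Replicate 2 scores had a median of 0.641 (0.1203 to 3.06), and combined scores one of 0.456 (0.0101 to 2.82). Wider regions tended to score higher, with a Spearman correlation of width and score across regions of 0.637 (n = 1787), 0.765 (n = 963) and 0.625 (n = 1703). Width and score thus overlap as measures of strength, and regions of 1 library are not independent replicates.

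KDM4A density changed strongly from one 100 kb bin to the next. Across 209 full bins of the interior, covered bases ranged from 0 to 69.0% in replicate 1 (median 22.5%, quartiles 11.6% and 32.5%). In replicate 2 the range was 0 to 43.2% (median 10.4%, quartiles 4.64% and 18.1%). Combined regions reached 71.2% (median 20.7%). A bin held up to 20 regions in replicate 1 and up to 15 in replicate 2, around medians of 9 and 4. Replicate 1 left 5 bins without any covered base, replicate 2 left 19 and the combined regions left 12.

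**Figure D1:**
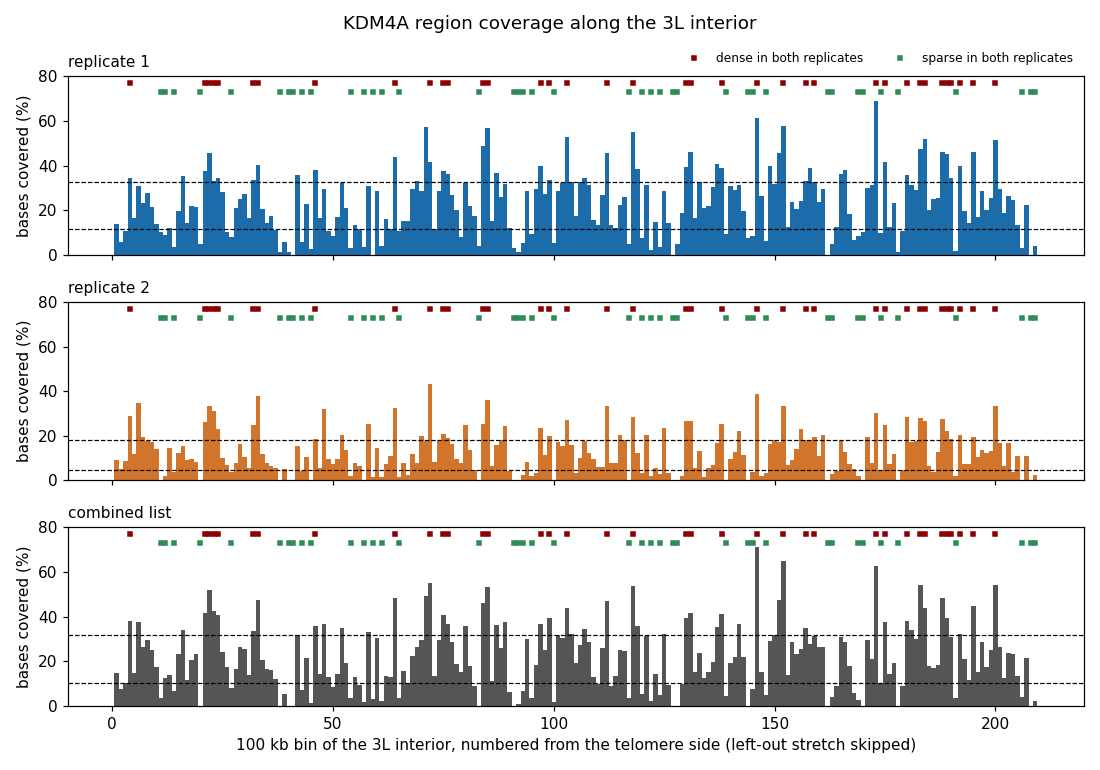
Percent of bases covered by KDM4A regions in each of the 209 bins of 100 kb (bars), ordered from the telomere side to the centromere side, for each of the lists. Dashed lines are the lower and upper quartiles of each list, and squares mark the 37 bins that were dense and the 41 that were sparse in both replicates; 17 of the dense bins have a dense neighbour and 12 a sparse one.

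The high and low bins were largely those of both replicates. Covered bases per bin correlated between the replicates with Pearson r = 0.85 and Spearman rho = 0.87 over 209 bins of the same arm, a description without a p since bins share libraries and depth. Of the 53 bins in the upper quartile of replicate 1, here called dense, 37 were also in the upper quartile of replicate 2 (69.8%, 55.7 to 81.7), where that quartile holds 25.4% of all bins. Of the 53 bins in the lower quartile, called sparse, 41 were shared (77.4%, 63.8 to 87.7). No bin was dense in one replicate and sparse in the other, in either direction (0 of 53 each, exact upper limit 6.72%). Replicate 1 was the higher of the replicates in 197 bins, replicate 2 in 9, and 3 bins were equal.

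**Figure D2:**
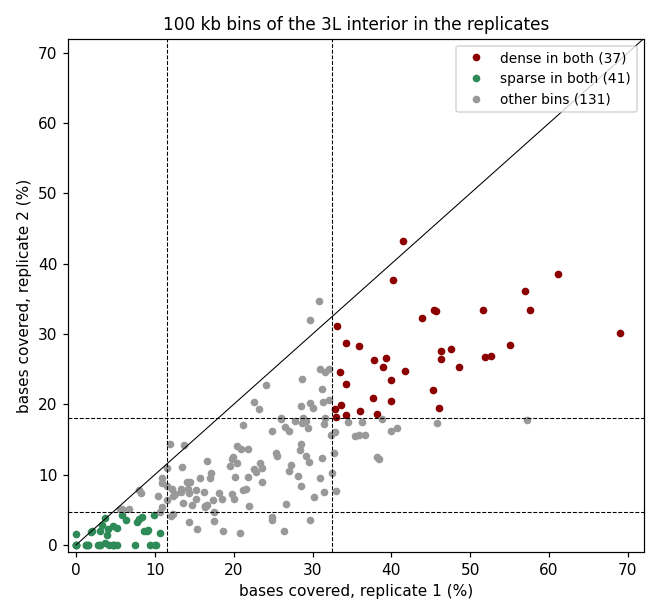
Percent of bases covered in replicate 1 (horizontal axis) and replicate 2 (vertical axis) for the 209 bins of 100 kb; dashed lines are quartiles and the solid line is equality. Red points are the 37 bins dense in both replicates, green points the 41 sparse in both, and 9 bins lie above the line of equality.

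Dense bins stood alone about as often as in company. Of the 37 shared dense bins, 17 had a dense neighbour and 12 had a sparse one on at least 1 side, and of the 41 shared sparse bins 17 had a sparse neighbour. Shared dense bins were 17.7% and shared sparse bins 19.6% of all bins. How many such neighbours position alone would give was not computed. Covered bases of adjacent bins correlated with r = 0.17 (replicate 1), 0.09 (replicate 2) and 0.14 (combined) over 207 pairs. At 200 kb the values were 0.08, 0.01 and 0.03 (205 pairs), and at 1000 kb they lay between -0.02 and 0.01 (189 pairs). The telomere-side 104 bins held 17 dense and 21 sparse bins, and the 105 bins toward the centromere held 20 of each. Within the latter, no bin from 21600001 on was dense in both replicates, and 3 of the last 4 were sparse in both.

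Windows of 1 Mb differed less from each other than bins did, which averaging over several bins makes likely. In 19 full windows, replicate 1 took up 15.2% to 31.2% of bases (median 26.1%) and replicate 2 took up 7.11% to 18.6% (median 12.8%). The highest replicate 1 window was 3L 16000001 to 17000000 (31.2%, against 17.0% in replicate 2), and the highest of replicate 2 was 3L 8000001 to 9000000 (18.6%, against 30.0% in replicate 1). Bases covered in replicate 2 relative to replicate 1 had a median ratio of 0.545. The partial window next to the centromere-side limit, 3L 22000001 to 22543557, was lower than any full one in replicate 1 (8.43%), replicate 2 (4.43%) and the combined list (7.63%). Among full windows this ratio of replicate 2 to replicate 1 was highest, at 0.840, in the window nearest the telomere, where replicate 2 covered 16.6% and replicate 1 covered 19.8%. It was lowest, at 0.383, in 3L 14000001 to 15000000, where replicate 2 covered 11.03% and replicate 1 28.8%.

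By the mean of the replicates, the densest bin was 3L 15500001 to 15600000. It was covered to 61.1% in replicate 1 by 15 regions and to 38.6% in replicate 2 by 13, and ranked second in each. The bin before it, 3L 15400001 to 15500000, was covered to 8.37% and 3.95% and belonged to the sparse class, so a sparse and a dense bin lay side by side there. After it, 3L 15600001 to 15700000 kept 26.3% in replicate 1 but 1.95% in replicate 2.

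The next densest bin, 3L 18800001 to 18900000, had 69.0% of its bases in regions of replicate 1 and 30.1% in those of replicate 2, ranks 1 and 13. Behind it came 3L 9400001 to 9500000 with 57.02% and 36.1%, and 3L 16100001 to 16200000 with 57.6% and 33.5%. The bin 3L 8100001 to 8200000 held the highest share of replicate 2, 43.2%, and was one of the 9 in which replicate 2 exceeded replicate 1 (41.5%). The other 5 of the 10 densest started at 21500001, 12700001, 11200001, 3100001 and 12100001, with 45.4% to 55.1% in replicate 1 and 26.9% to 33.4% in replicate 2. All 10 were dense in both replicates, which their choice by the mean of the replicates makes likely.

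At the other extreme, 3 bins had no covered base in any of the lists, and they started at 5000001, 13600001 and 17100001. In 3L 22300001 to 22400000 a region edge held 0.052% in replicate 2 and 0 in replicate 1. The bins that started at 4700001, 19300001, 10100001, 4900001 and 5400001 held 1.32% to 2.82% in replicate 1 and 0 in replicate 2. The tenth, 3L 6800001 to 6900000, reversed this order with 0 in replicate 1 and 1.58% in replicate 2. All 10 were sparse in both replicates, which is again likely from the choice by the mean.

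The largest disagreements in rank, named here after their values were seen, were in bins neither dense in both replicates nor sparse in both. This follows from the classes, since a bin in the same outer quartile of both lists cannot differ by so many ranks. In 3L 10500001 to 10600000 replicate 1 covered 29.6% with 14 regions and replicate 2 covered 3.50% with 1 region, ranks 71 and 167. That replicate 2 share was below its lower quartile of 4.64%. On the other side, 3L 2200001 to 2300000 was covered to 11.9% and 14.4% by 5 regions each, ranks 155 and 78. Replicate 2 thus ranked lower in the former bin and higher in the latter.

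Runs of at least 2 neighbouring bins of the same class in both replicates formed 7 dense stretches and 8 sparse stretches, of 1.7 Mb each in sum. The longest dense stretch, 3L 3000001 to 3400000, spanned 400 kb and had 47 regions over 37.7% of its bases in replicate 1 and 37 regions over 28.4% in replicate 2. The stretch with the highest replicate 1 share, 3L 9300001 to 9500000, was covered to 52.8% and 30.7%. The highest replicate 2 share, 31.2%, was that of 3L 4100001 to 4300000, against 36.9% in replicate 1.

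Closer to the centromere, 3L 20300001 to 20600000 reached 41.9% in replicate 1 and 22.6% in replicate 2 over 300 kb, and 3L 19800001 to 20000000 reached 49.7% and 27.3%. The remaining dense stretches were 3L 8400001 to 8600000 with 36.9% and 20.0%, and 3L 13900001 to 14100000 with 42.8% and 26.5%. In all 7 the combined list stood between 38.7% and 49.7%.

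The longest sparse stretch was 3L 10000001 to 10300000, with 6 regions and 3.21% in replicate 1 and 1 region and 0.781% in replicate 2. The emptiest, 3L 4900001 to 5100000, had 1 region and 0.730% in replicate 1 and none in replicate 2, and 3L 13600001 to 13800000 had 3 regions and none. Replicate 1 share stayed near 2% in 3L 17100001 to 17300000 (2.35%) and in 3L 22300001 to 22500000 (2.03%), with 1 replicate 2 region in each. Higher replicate 1 shares were found in 3L 2000001 to 2200000 (9.48%), 3L 18400001 to 18600000 (9.41%) and 3L 15300001 to 15500000 (7.91%), while replicate 2 stayed at 0.974%, 1.02% and 1.98% there.

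Dense and sparse bins held regions of different number, width and score, but the classes themselves were set by covered bases. The 37 dense bins, 17.7% of all bins, held 28.3% of replicate 1 regions and 35.0% of replicate 2 regions. The 41 sparse bins, 19.6% of all, held 5.71% and 2.70%. Median width was 2475 bp in dense and 1685 bp in sparse bins of replicate 1, and 2442 bp and 1994 bp in replicate 2. The median score was 0.797 and 0.738 in replicate 1, and 0.706 and 0.520 in replicate 2. Replicate 1 regions of dense bins were found in replicate 2 in 61.6% of cases (311 of 505, 57.2 to 65.8), and those of sparse bins in 22.5% (23 of 102, 14.9 to 31.9). Replicate 2 regions were found in replicate 1 to 92.6% in dense bins (312 of 337, 89.2 to 95.1) and to 84.6% in sparse bins (22 of 26, 65.1 to 95.6), and those intervals overlap. The bins were chosen on covered bases in both replicates. The contrasts in number, width and share found are thus fixed in part by the choice, and scores rise with width.

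Stretches with no region in either replicate reached 252 kb. The longest was 3L 13531318 to 13783421 and the next 3L 4912222 to 5126190, of 214 kb, and neither held a region of the combined list. Behind them came 3L 17068799 to 17233889 (165 kb), 3L 19311780 to 19438733 (127 kb) and 3L 18266563 to 18390496 (124 kb), each touched by 1 combined region. In all, 10 such stretches exceeded 100 kb and held 6.75% of the interior. In replicate 2 alone there were 36, holding 26.2%, the longest being 3L 13507775 to 13852312 with 345 kb, inside which replicate 1 had 10 regions.

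How many regions lay in chains depended on how a chain was defined. A cluster was taken as at least 5 regions of a list with gaps of at most 5 kb. Replicate 1 had 100 clusters with 739 regions (41.4% of its regions, 39.1 to 43.7) and replicate 2 had 30 with 179 (18.6%, 16.2 to 21.2). Combined regions formed 99 clusters with 752 members (44.2%, 41.8 to 46.6). That share was 12.9% with gaps of at most 2 kb, 69.5% with gaps of at most 10 kb, 69.1% with at least 3 regions and 11.05% in the upper-scoring 50% of the list. The median span of combined clusters was 31.3 kb, beside 28.5 kb for clusters of replicate 1 and 25.2 kb for those of replicate 2. Of the 30 clusters of replicate 2, 25 touched a cluster of replicate 1, whose clusters spanned 15.6% of the interior. In the other direction 26 of 100 were touched, and replicate 2 clusters spanned 3.85%. These spanned shares count bases. They are not the rate at which clusters of such length would touch by position alone, which is higher and was not computed.

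The cluster with most combined regions, 3L 16073512 to 16183098, chained 19 regions over 109.6 kb, with 58.1% of bases in replicate 1 regions and 34.2% in replicate 2 regions. Replicate 1 had its own largest cluster there, with 21 regions from 16073460 to 16175556. Next came 3L 19849952 to 19935618, with 18 regions over 85.7 kb and covered shares of 59.3% and 33.9%. It lies in one of the dense stretches.

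The cluster 3L 15491024 to 15594228 had 17 regions over 103.2 kb, with 62.4% and 41.2% covered, and takes up most of the densest bin. Its regions were wide, with a median of 3897 bp. Finally, 3L 7315524 to 7382566 (15 regions, 65.5% and 48.1%) and 3L 9659444 to 9724202 (14 regions, 67.5% and 39.3%), complete the 5 largest. In replicate 2 the most regions in a cluster were 9, reached at 3L 12104018 to 12150078 (59.4% covered, and 63.1% in replicate 1) and again inside the densest bin, at 3L 15546333 to 15583045 (72.9%, and 54.9% in replicate 1).

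Most regions of replicate 2 had a counterpart in replicate 1. Of 963 regions, 894 shared at least 1 bp with a replicate 1 region (92.8%, 91.0 to 94.4), beside 91.8% over the whole list. Of 1787 replicate 1 regions, 886 had a counterpart (49.6%, 47.2 to 51.9), beside 45.8% over the whole list. These shares are near the background and say nothing particular of 3L. Shared bases came to 2.18 Mb of a joint 5.25 Mb (41.6%), that is 84.1% of replicate 2 bases and 45.1% of replicate 1 bases. The interiors of the other arms, cut in the same way, had joint shares of 42.3% on 2L, 44.2% on 3R and 45.4% on X. Their mean covered shares were 16.9% ± 7.08 on 2L, 16.9% ± 5.88 on 3R and 18.2% ± 7.37 on X (SD, n = 2 each), beside 17.7% ± 7.57 on 3L. These SDs hold the offset between the same 2 libraries on every arm. Within replicates, 3L (23.1% and 12.4%) lay above 2L (21.9% and 11.9%) and below X (23.4% and 12.9%) in both, and above 3R in replicate 1 (21.1%) but below it in replicate 2 (12.8%). No test of these differences is possible.

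Matches were mostly simple. Of the replicate 2 regions 826 touched exactly 1 replicate 1 region, 64 touched 2 and 4 touched 3 or more. In 700 pairs each region was the other's only partner. Their centres lay a median of 273 bp apart and within 500 bp in 488 pairs (69.7%), and 609 pairs (87.0%) overlapped by at least 50% of both regions. The replicate 1 region was the wider in 471 pairs (67.3%), with medians of 2778 bp and 2265 bp. Scores of the pairs correlated with r = 0.69 and rho = 0.65 (n = 700), and widths with rho = 0.48, again as a description.

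The 69 replicate 2 regions without a counterpart were mostly narrow and low in score, and most lay within 5 kb of a replicate 1 region. Their median width was 1610 bp against 2303 bp for those found, and their median score 0.486 against 0.673. A single one of them scored above the median of the list, and it was the best-scoring region of replicate 2 (score 3.06). The 69 regions lay a median of 1365 bp from the nearest replicate 1 region, 56 of them within 5 kb. How often other positions lie that close was not computed. Of the 69, 51 were in the combined list (73.9%), beside 945 of all 963 replicate 2 regions (98.1%).

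The share found varied with score and with width. When replicate 1 regions were ranked by score and cut into 10 equal groups, 93.3% of the top group were found in replicate 2 (166 of 178, 88.5 to 96.5). Groups 2 to 6 from the bottom lay between 30.7% and 37.99%, and the lowest group was above them at 43.6% (36.2 to 51.2). By width the share rose from 5.03% in the narrowest group, 1301 to 1427 bp (9 of 179, 2.32 to 9.33), to 87.6% in the widest (156 of 178, 81.9 to 92.1). Replicate 2 regions were found to 81.3% to 91.7% in the lower 5 score groups and to 99.0% to 100% in the upper 5. How much of the rise with width comes from the overlap rule was not tested.

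**Figure D3:**
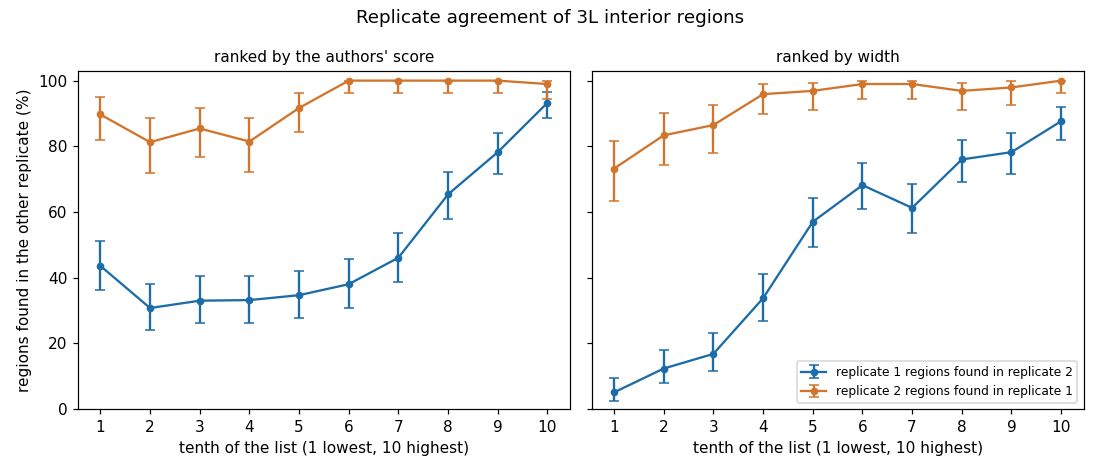
Percent of regions found in the other replicate (1 bp overlap) for 10 equal groups of each list ranked by the authors' score (left) and by width (right); bars are exact 95% intervals. Replicate 1 regions rise from 5.03% in the narrowest group to 87.6% in the widest, whereas by score they stay between 30.7% and 46.1% up to group 7 and end at 93.3%.

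Among narrow regions of replicate 1 the relation with the score ran the other way. Regions were cut into 3 equal classes by width, and each class was split at its median score. In the narrow class (1301 to 1872 bp), 66 of 298 lower-scoring regions were found in replicate 2 (22.1%, 17.6 to 27.3), but 9 of 298 higher-scoring ones (3.02%, 1.39 to 5.66). These intervals do not overlap, and median widths were nearly equal, at 1532 bp and 1514 bp. The combined list held 73.2% of the former and 38.6% of the latter. In the wide class the order was the opposite, with 69.8% (64.2 to 74.96) of lower-scoring and 86.9% (82.5 to 90.5) of higher-scoring regions found.

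The same order among narrow regions was seen on every arm interior examined. Lower- and higher-scoring narrow regions were found to 23.4% and 2.96% on 2L, 29.3% and 7.10% on 3R, and 29.2% and 5.99% on X, so it is not particular to 3L. Among narrow regions of replicate 2 on 3L those with lower scores were also found more often, 86.9% (80.6 to 91.7) against 77.6% (70.4 to 83.8), but those intervals overlap. This split was chosen after the data were seen.

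**Figure D4:**
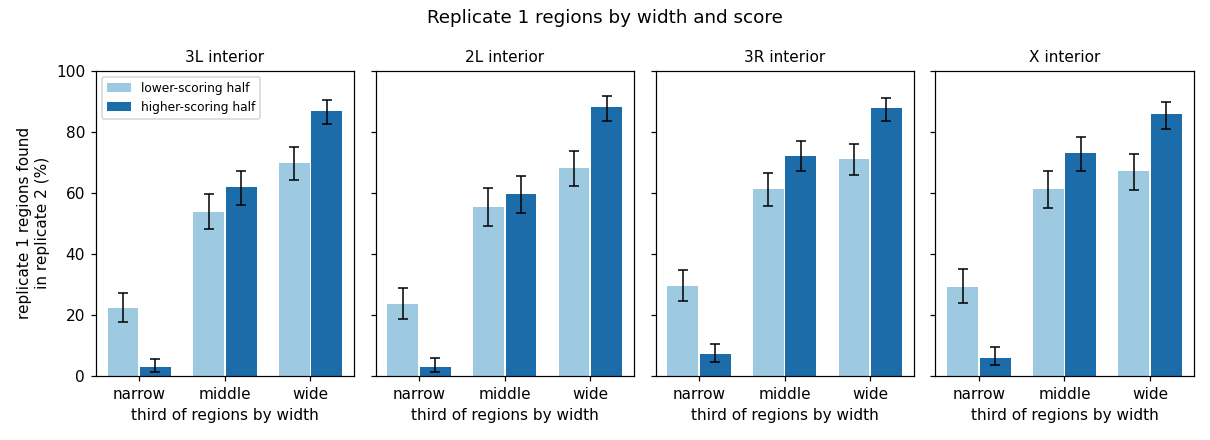
Percent of replicate 1 regions found in replicate 2 (1 bp overlap) in 3 classes of region width, each split at its median score, for the interiors of 3L, 2L, 3R and X; bars carry exact 95% intervals. On 3L the higher-scoring regions give the lower bar among narrow regions (3.02% against 22.1%) and the higher bar among wide ones (86.9% against 69.8%).

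The combined list followed both replicates at its top. Of 1703 combined regions, 848 were touched by both replicates (49.8%, 47.4 to 52.2), beside 44.6% over the whole list. Another 608 were touched by replicate 1 alone (35.7%, beside 38.8%), 57 by replicate 2 alone (3.35%, beside 3.72%) and 190 by neither (11.2%, beside 12.8%). Those of both replicates held 68.0% of the combined bases and had a median width of 3019 bp. Regions in neither had a median width of 1215 bp and held 5.28% of the bases. Combined regions went down to 1001 bp, whereas the narrowest regions were 1301 bp in replicate 1 and 1307 bp in replicate 2. The part of these unequal lower widths in the count of neither was not tested. The combined list comes from the same series, so it is not independent of the replicates. The share touched by both was 50.6% on the 2L interior, 52.6% on 3R and 49.0% on X, so it is not particular to 3L.

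Support by both replicates changed sharply across the middle of the score range. In 10 equal groups by score it was 12.4% to 24.1% in the lowest 5, 44.1% in group 6, 78.4% in group 7 and 92.9% to 98.8% in the upper 3. Regions of replicate 2 alone were found in the lowest 5 groups and in none above them. Of the 50 best-scoring combined regions 47 were touched by both and 3 by neither.

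**Figure D5:**
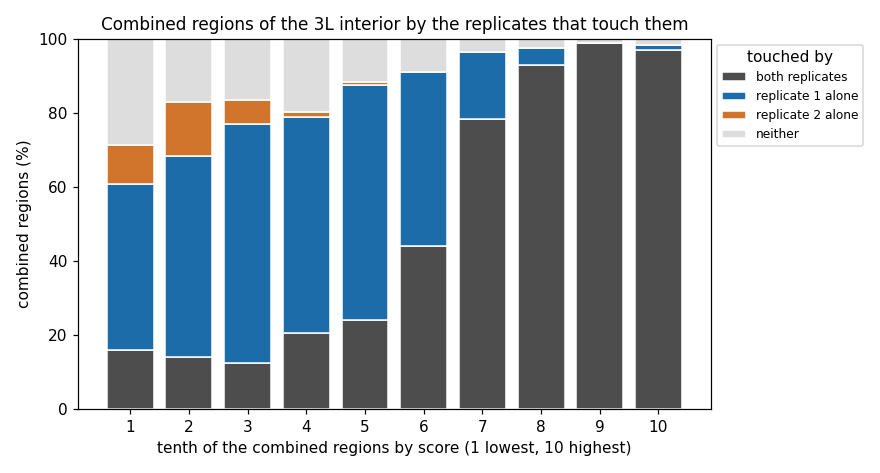
Share of combined 3L interior regions (percent, stacked) touched by both replicates, by replicate 1 alone, by replicate 2 alone or by neither, in 10 equal groups of the combined list ranked by score. Both replicates touch 24.1% of group 5 and 92.9% of group 8.

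The single best-scoring region of each replicate had no counterpart in the other, and that of the combined list had none in either. In replicate 1 it was 3L 20326826 to 20329430 (2605 bp, score 3.73), far above the next score of 2.80, and no replicate 2 region touched it. In replicate 2 it was 3L 21492034 to 21493401 (1368 bp, score 3.06, next score 1.84), and no replicate 1 region touched it. Both of these replicate regions were in the combined list. The best-scoring combined region was 3L 20322170 to 20323170 (1001 bp, score 2.82), touched by neither replicate. Its width is the lowest of the combined list, below the narrowest region of replicate 1 (1301 bp) and of replicate 2 (1307 bp). Ranks 2 to 5 of both replicate lists were all found in the other replicate. These 3 regions were singled out after their values were seen.

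Among combined regions touched by both replicates, the best-scoring was 3L 14103600 to 14105968, with a score of 2.06. Replicate 1 covered it fully (score 2.80) and replicate 2 covered 90.9% (score 1.51). It lies just past the edge of the dense stretch 3L 13900001 to 14100000, in a bin covered to 15.3% by combined regions.

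Next, 3L 9374034 to 9381378 (7345 bp, score 1.97), and 3L 3191488 to 3201946 (10459 bp, score 1.88), were broad and lay in dense stretches. Replicate 1 covered 96.4% and 84.2% of them and replicate 2 covered 97.9% and 99.5%. Rank 9, 3L 3245798 to 3253226 (7429 bp, score 1.73), was of the same kind, with 89.5% and 93.0%. The other 6 of the 10 were 2217 to 3331 bp wide with scores of 1.72 to 1.82 and started at 15974840, 6947474, 11814284, 2850878, 20089462 and 21720760. Their bins were covered from 12.6% to 31.8% in the combined list. All 10 were matched by exactly 1 region in each replicate.

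The widest combined regions overlapped several replicate regions more often than the best-scoring ones did, and the part of width in this was not tested. The widest, 3L 16142818 to 16160100 (17283 bp, score 0.632), lies in the cluster of 19 and corresponded to 4 regions of replicate 1 covering 89.9% and 3 of replicate 2 covering 47.3%. The next, 3L 4276970 to 4289946 (12977 bp, score 0.775), corresponded to 3 and 2 regions covering 82.4% and 88.8%. In contrast, 3L 3215446 to 3226962 (11517 bp, score 1.26) matched 1 region of each, at 91.0% and 98.4%.

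The other 7 of the 10 widest measured 11243 to 12763 bp and started at 19891668, 5753022, 18887752, 15572696, 20419670, 15522414 and 7356812. Replicate 1 covered 87.5% to 99.8% of each and replicate 2 covered 40.5% to 100%. Their scores, from 0.751 to 1.16, stayed below those of the 10 best-scoring. The pair that starts at 15522414 and 15572696 shares the densest bin of the interior.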

How the data were processed

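The deposited lists give, for each enriched region, its position on FlyBase release 5 (per the file headers) and an enrichment score of the authors, whose scale is not stated. Bowtie 0.12.7 is named in the labels, per the submitters' processing notes. Which program called the regions, at what threshold and with which input, and how the combined list was made, is not given in the sources used here. Depth is unknown. Regions were selected by type and midpoint, and 1 row typed otherwise was left out. Covered shares are bases in member regions over the 20943556 bp analysed. Bins of 100 kb start at 1000001, and partial bins were left out. A region counted as found at an overlap of 1 bp with any region of the other list. No genome or gene annotation of release 5 was at hand, and the gene table of release 6 was not used for positions, so no gene and no sequence is named. Named items were the 10 densest and sparsest bins, all stretches, the 10 widest and 10 best-scoring combined regions, the 5 largest clusters and the 5 longest empty stretches. Windows of 1 Mb, discordant bins, the clusters of single replicates and each list's best-scoring region were added after their values were seen. Members, thresholds and lists were chosen with earlier results of these data known. Interval code was tested on simulated lists (Python 3.11.15, numpy 2.4.6, pandas 2.3.3, scipy 1.17.1, matplotlib 3.10.9).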

Additional observations from a re-analysis of the deposited data

How the results depend on the processing

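Of 34 alternative values for 7 results, leaving out single replicates aside, 20 stayed within the replicate SD or the exact 95% interval of the reported value and 14 did not. For the covered share the limit was the SD of the 2 replicates (17.7% ± 7.57). With so wide a limit, 11.1% in the upper-scoring 50% and 22.0% in the combined list both counted as within. These counts are therefore no measure of stability. An overlap of at least 50% of both regions gave 71.0% of replicate 2 regions and 38.3% of replicate 1 regions found, and 50% of the combined region covered gave 44.3% in both. In the upper-scoring 50% of each list these shares were 86.3% and 47.0%. With replicate 1 reduced to the number of replicate 2 they were 65.1% and 61.7%, the replicate 1 list then being shorter by construction. Sparse bins shared fell to 61.9% for the lower 10% in place of the quartile and lay between 67.9% and 75.4% otherwise. Combined regions in clusters came to 12.9% with gaps of at most 2 kb, 69.5% with 10 kb, 69.1% with at least 3 regions and 11.05% in the upper-scoring 50%, and the share was 41.4% for the replicate 1 list and 18.6% for the replicate 2 list. Covered share was 12.4% without replicate 1 and 23.1% without replicate 2, which with n = 2 are the replicates' own values and no check of stability. It was 11.1% in the upper-scoring 50%. Dense bins shared ran from 63.1% to 79.0%. No paired analysis was possible because inputs, whose replicate numbers match those of the ChIP, have no regions here to pair.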
